A study of Homo sapiens with 6 samples.

Results

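The K562 line was set against UT7-5.3 and MV4-11 with 2 K562 arrays out of 6 arrays in all, the other two lines giving 2 arrays each. Every line had been transduced with a lentiviral shRNA vector and was proliferating when total RNA was taken. In each line, 1 array carried the control shRNA (shcontrol) and 1 the shRNA against CXXC5 (shRINF). The groups were therefore K562 shcontrol and K562 shRINF, UT7-5.3 shcontrol and UT7-5.3 shRINF, and MV4-11 shcontrol and MV4-11 shRINF, with no untransduced cells and no second array of a line with the same shRNA. K562 and MV4-11 grew in RPMI medium and UT7-5.3 in MEM alpha with GM-CSF, so medium and cytokine cannot be told apart from the line in any comparison with UT7-5.3. The members described here are the genes whose K562 values on both arrays lay above, or below, all 4 arrays of the other lines by 1 log2 unit or more. Of 15311 genes tested, 272 (1.78%) met this rule above the other arrays and 277 (1.81%) below them. They are called K562-high and K562-low genes from here on.

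K562 was derived from chronic myeloid leukaemia in blast crisis and carries the BCR-ABL1 fusion, a tyrosine kinase that is always active and signals through adaptors such as CRKL and through STAT5. It can make embryonic and fetal globins and is widely used as a model of erythroid cells, and as a target of natural killer cells because it shows little MHC class I on its surface. UT7-5.3 belongs to the UT-7 family of megakaryoblastic, cytokine-dependent lines. MV4-11 is a monocytic acute leukaemia line with a KMT2A fusion and a mutated FLT3 receptor. CXXC5, also named RINF, is a zinc finger protein that binds unmethylated CpG-rich DNA.

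All values are log2 RMA expression values, given for the shcontrol array and then the shRINF array of a line. Values of about 4 or less lie close to the array's floor, so a difference from such a value is measured against the floor. The level of a transcript in a bulk culture cannot tell fewer cells that make it from less RNA per cell. CXXC5 was at 8.40 and 7.95 in K562, 8.42 and 7.76 in UT7-5.3, and 8.58 and 7.95 in MV4-11. It was lower with shRINF in all 3 lines, and the lines overlapped. The common leukocyte antigen gene PTPRC was read at 8.61 and 8.67 in K562, 9.66 and 9.97 in UT7-5.3 and 9.51 and 9.14 in MV4-11, and beta actin (ACTB) lay between 10.92 and 11.14 on every array.

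A linear model in limma, with the line and the shRNA as terms, gave the comparison over all genes. A gene was called where the adjusted p was under 0.05 and the difference was 1 log2 unit or more. Against the mean of the other two lines, 1623 genes (10.6%) were called, 660 of them higher in K562 (4.31%) and 963 lower (6.29%). Against UT7-5.3 alone, 1508 genes were called (9.85%). Of these, 612 genes were higher (4.0%) and 896 lower (5.85%). Against MV4-11 alone, 2312 were called (15.1%), of which 1081 were higher (7.06%) and 1231 lower (8.04%). In both pairs at once, 354 genes were higher (2.31%) and 362 lower (2.36%). These 2 comparisons share the K562 arrays. For scale, UT7-5.3 differed from MV4-11 in 2078 genes (13.6%), 1084 higher (7.08%) and 994 lower (6.49%). The p-values rest on the spread between the 2 arrays of a line after the shared shRNA difference was taken out, and not on repeats of the same treatment or on different patients. All 272 K562-high and 277 K562-low genes were among those called, which follows in large part from how they were chosen and is no separate evidence.

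**Figure D1:**
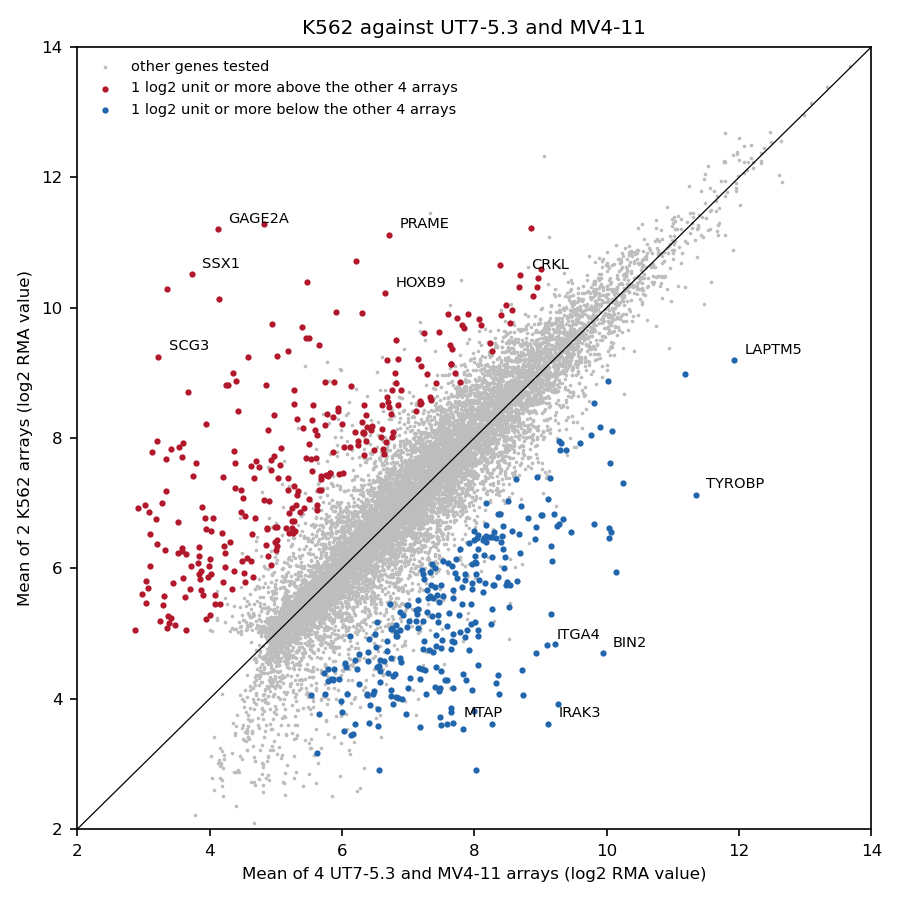
Mean log2 RMA value of the 2 K562 arrays (vertical axis) against the mean of the 4 UT7-5.3 and MV4-11 arrays (horizontal axis), 1 point per gene. Red points are K562-high genes and blue points K562-low genes, with the line of equal values drawn in black. GAGE2A, SSX1 and SCG3 lie near 4 or below in the other lines and above 9 in K562, while BIN2 and IRAK3 have means above 9 over the other 4 arrays and below 5 in K562.

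The members fell into nearly equal numbers on each side. Among K562-high genes, 223 were protein coding, 26 were long noncoding RNAs, 18 transcribed pseudogenes, 3 other pseudogenes and 2 miRNA genes. K562-low genes included 258 protein-coding genes, 6 transcribed pseudogenes, 5 long noncoding RNAs, 3 miRNA genes, 3 snoRNA genes and 2 other pseudogenes. Long noncoding RNAs were thus K562-high in 3.55% of those tested and K562-low in 0.68%. The median gap between K562 and the nearest other array was 1.62 log2 units for K562-high and 1.61 for K562-low genes. The gap was 2 or more in 92 and 91 genes. For 101 K562-high genes all 4 other arrays were under log2 5, so the filter kept them only through K562, and for 55 of these the 4 arrays were at 4 or less. For 116 K562-low genes both K562 values were under 5, and for 26 they were at 4 or less. At the edge of the rule, SLC38A5, DCTN2 and PNPLA4 had gaps of 1.0, and GABRA3, LZTR1 and SDE2 just missed it at 0.99. On the low side PTPRE (-1.01), ETS1 (-1.0) and DENND11 (-1.0) were just inside, and MIR3975, GBGT1 and ZNF569 (-0.99 each) just outside.

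Germ-cell antigens were among the K562-high genes with the widest gaps, beside genes of other kinds such as ZNF385D-AS1, SCG3 and RELN. Cancer-testis genes are active in spermatogenic cells, usually silent in other adult tissues, and found again in many tumours. GAGE2A was at 11.18 and 11.23 in K562, 4.30 and 4.24 in UT7-5.3, and 3.95 and 4.01 in MV4-11. SSX1, whose family encodes nuclear repressors that are known from gene fusions in synovial sarcoma, was at 10.46 and 10.56 in K562 and between 3.59 and 3.82 elsewhere. GAGE12B was at 11.28 and 11.31 in K562 and between 4.61 and 5.01 elsewhere. In each of these the 2 K562 arrays stood together far above the other 4. The same held for GAGE1 (10.12 and 10.17 against 3.99 to 4.34), GAGE10 (8.84 and 8.80 against 4.03 to 4.35), PAGE5 (8.89 and 9.11 against 4.31 to 4.44) and PAGE1 (7.82 and 8.04 against 3.37 to 3.70). MAGEB2 was at 9.17 and 9.35 against 4.90 to 5.13.

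Of 70 cancer-testis genes listed, 37 had a feature of their own and 24 passed the filter. Of the 24, 18 were called higher in K562, none lower, and 17 were K562-high genes; over all genes 4.31% were called higher. For 12 of the 24 all 4 other arrays were under log2 5, so that the filter kept them only through K562. The 13 members below it therefore belong beside the count. The median difference was 0.96 log2 units over the 37, against 0.00 over all genes tested. The list was divided. MAGEA10 (4.35 on both K562 arrays), MAGEA11, PAGE3, BRDT and SYCP1 were read at the same low level in every line. MAGEA6 was called without a gap of 1, at 8.95 and 9.02 in K562, 8.18 and 8.13 in UT7-5.3 and 7.11 and 7.05 in MV4-11. PRAME, a repressor of retinoic acid signalling, was also measured in UT7-5.3, at 11.09 and 11.14 in K562, 7.58 and 7.55 in UT7-5.3 and 5.85 and 5.88 in MV4-11. SAGE1, another cancer-testis gene outside the list, was at 7.61 and 7.75 against 3.33 to 3.37. The genes of the GAGE (4), SSX (7), PAGE (3) and POTE (7) families that passed the filter were K562-high. None would have passed it without K562, as even GAGE12B reached log2 5 on only 1 other array (5.01). This count was therefore largely set by the filter. PAGE2 (4.20 and 4.61 in K562 against 3.75 to 3.89), PAGE3 and PAGE4 were below it. Genes of these families are near copies of each other, and probes of 1 gene can take up transcripts of the next, so the values of single members are uncertain.

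The promoters of the 4 GAGE genes show how alike the copies are. They are given from 250 bases before to 50 bases after the annotated start, from RefSeq on GRCh38.p14, with CpG sites in capitals because CpG content is the feature of DNA that CXXC5 is known to read. All lie on the plus strand of chromosome X, GAGE1 at chrX:49598763-49599062, GAGE2A at chrX:49589246-49589545, GAGE12B at chrX:49340914-49341213 and GAGE10 at chrX:49303396-49303695.
GAGE1: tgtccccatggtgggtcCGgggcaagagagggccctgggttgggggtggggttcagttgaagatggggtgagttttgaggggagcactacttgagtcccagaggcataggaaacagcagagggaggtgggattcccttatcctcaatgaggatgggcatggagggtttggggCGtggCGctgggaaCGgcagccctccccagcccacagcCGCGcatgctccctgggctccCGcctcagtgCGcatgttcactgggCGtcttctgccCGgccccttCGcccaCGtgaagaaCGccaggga
GAGE2A: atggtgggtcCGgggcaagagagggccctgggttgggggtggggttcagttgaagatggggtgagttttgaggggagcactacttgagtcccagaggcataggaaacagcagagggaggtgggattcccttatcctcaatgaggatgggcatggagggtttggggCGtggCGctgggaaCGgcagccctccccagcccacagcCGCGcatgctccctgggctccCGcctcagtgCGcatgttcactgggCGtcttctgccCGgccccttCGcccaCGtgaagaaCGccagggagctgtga
GAGE12B: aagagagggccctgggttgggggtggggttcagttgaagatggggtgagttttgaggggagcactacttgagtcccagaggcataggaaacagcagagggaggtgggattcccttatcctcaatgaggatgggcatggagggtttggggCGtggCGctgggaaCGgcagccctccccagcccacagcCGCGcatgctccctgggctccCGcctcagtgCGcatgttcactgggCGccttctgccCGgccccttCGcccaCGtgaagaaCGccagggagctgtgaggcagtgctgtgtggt
GAGE10: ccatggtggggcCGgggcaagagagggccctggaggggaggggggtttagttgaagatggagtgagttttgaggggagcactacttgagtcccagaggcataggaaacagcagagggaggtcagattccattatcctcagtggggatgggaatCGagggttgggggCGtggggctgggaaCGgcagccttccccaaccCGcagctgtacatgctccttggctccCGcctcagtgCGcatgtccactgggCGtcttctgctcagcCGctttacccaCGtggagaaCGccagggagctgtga
GAGE1 and GAGE2A were identical over the 293 bases they share, GAGE1 and GAGE12B matched at 276 of 277 (99.6%), and GAGE1 and GAGE10 at 263 of 293 (89.8%). They hold 13, 13, 12 and 11 CpG sites. Over the 21 cancer-testis genes with a promoter sequence the median was 12 CpG sites in 300 bases, against 25 over 10518 protein-coding genes, 22 over 183 K562-high and 19 over 209 K562-low genes. None of the 21 had fewer than 5 CpG sites. As only 7.2% of all promoters did, few were to be expected among 21 and no contrast is drawn. Near copies such as the GAGE promoters are also not separate cases. DNA methylation was not measured.

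Several of the widest gaps lay outside the gene lists. SCG3, a granin of secretory vesicles, was at 9.22 and 9.28 in K562 and between 3.13 and 3.31 elsewhere. RELN, the secreted glycoprotein that guides migrating neurons, was at 8.67 and 8.74 against 3.66 to 3.70. The adhesion receptor ADGRV1 was at 7.93 and 7.97 against 3.09 to 3.35, and the kinesin KIF21A at 7.85 and 7.87 against 3.43 to 3.59. All 4 genes were near the floor in the other lines. ALDH1A2, which makes retinoic acid, was at 8.79 and 8.83 in K562, 4.94 and 5.12 in UT7-5.3 and 4.65 and 4.68 in MV4-11. Among noncoding members, ZNF385D-AS1 was at 10.16 and 10.43 against 3.28 to 3.44, LINC00958 at 9.81 and 9.70 against 4.89 to 5.02, and LINC00470 at 6.92 and 6.93 against 2.89 to 2.95.

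Some genes of epithelial cells were K562-high, while others were low in every line. EPCAM, the epithelial cell adhesion molecule, was at 7.71 and 7.70 in K562 and between 3.53 and 3.63 elsewhere. The tight junction scaffold TJP1 was at 8.79 and 8.85 in K562, 4.48 and 4.75 in UT7-5.3 and 3.95 and 3.93 in MV4-11. KRT8 and KRT19, keratins of simple epithelia, had gaps of 1.74 and 1.64, and ANXA1 of 1.25. Of 22 fibroblast, epithelial and endothelial markers tested, 5 were called higher and 5 lower, against 4.31% and 6.29% of all genes. Their median difference was -0.06. The epithelial genes CDH1, KRT5 and KRT14 were under log2 5 on every array, and the fibroblast genes DCN and LUM were under 3. The endothelial gene PECAM1 (4.69 and 4.32 against 7.53 to 8.38) and the mesenchymal gene VIM (8.63 and 8.42 against 9.72 to 9.97) were K562-low. SERPINB9, an inhibitor of granzyme B that was chosen after its values were seen, was at 7.67 and 7.63 in K562 and between 4.60 and 4.80 elsewhere.

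**Figure D2:**
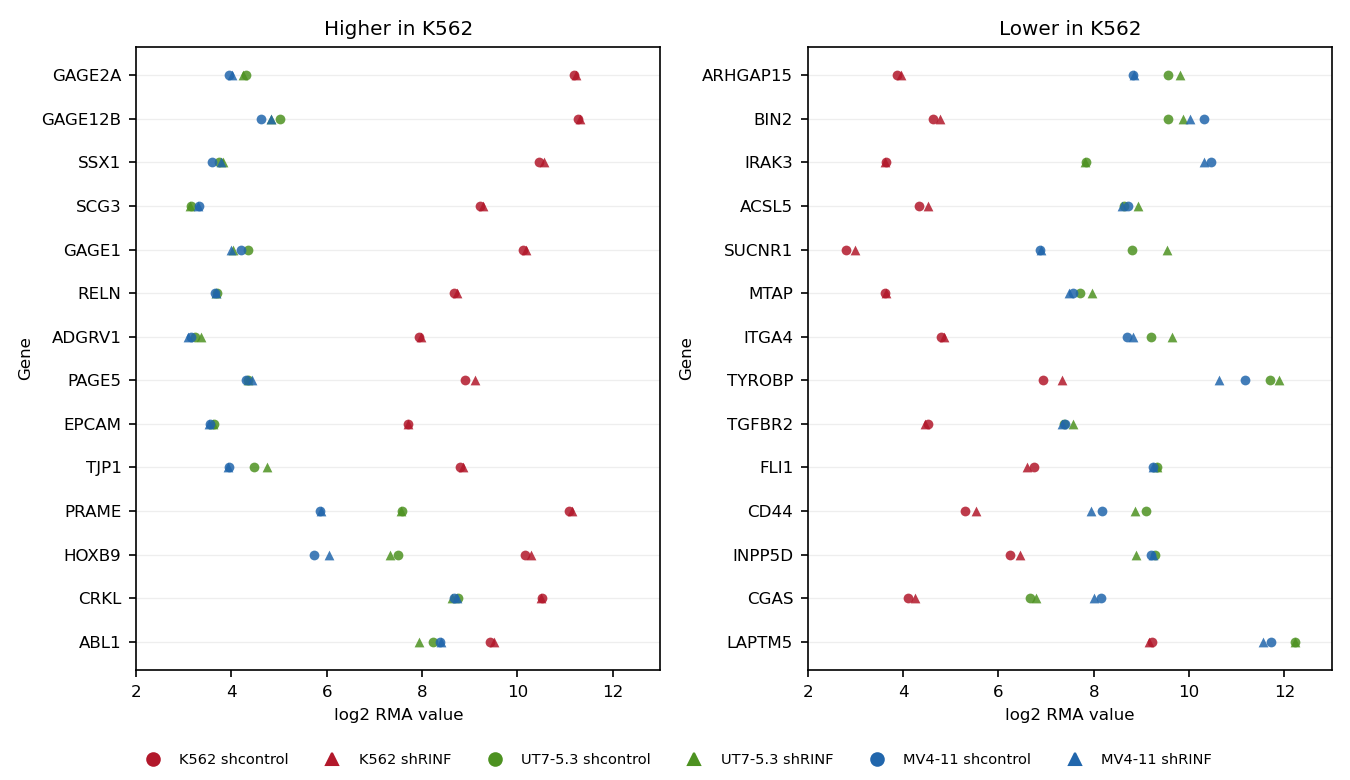
Log2 RMA value (horizontal axis) on each of the 6 arrays for 14 K562-high genes (left) and 14 K562-low genes (right), with colour for the line and shape for the shRNA. The red K562 points lie to 1 side of all others in every row, and the circle and triangle of K562 nearly coincide in most rows. PRAME and HOXB9 also separate UT7-5.3 from MV4-11.

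Red cell genes were called higher in K562 against MV4-11 more often than against UT7-5.3. Against MV4-11 they were 3 of 6 globin and chaperone genes, 5 of 13 haem synthesis genes and 13 of 28 membrane genes. Against UT7-5.3 they were 0, 1 and 4. All genes leaned the same way, with 7.06% higher against MV4-11 and 4.0% against UT7-5.3. Embryonic zeta globin (HBZ) was at 12.32 and 12.34 in K562, 11.51 and 11.88 in UT7-5.3 and 6.28 and 6.52 in MV4-11. Its difference from the mean of the other two lines was 3.28 ± 0.10 log2 units (SE, limma, adjusted p = 1.80e-11), but K562 exceeded UT7-5.3 by 0.64 only. Of 6 globin and chaperone genes tested, HBZ alone was called. Delta globin (HBD) was at 5.99 and 6.64 in K562, 7.14 and 8.46 in UT7-5.3 and 3.91 and 3.86 in MV4-11, and the alpha-globin chaperone AHSP at 5.45 and 5.75, 5.39 and 5.98, and 3.45 and 3.63. The genes HBA1, HBA2, HBE1, HBG1 and HBG2 had no feature of their own and were not analysed here. In haem synthesis 3 of 13 genes were higher and 1 lower, against 4.31% and 6.29% of all genes. ALAS2, the erythroid form of the entry enzyme, was higher by 2.49 ± 0.09 (adjusted p = 1.17e-10). ALAS1, its housekeeping form, was at 8.04 and 8.12 in K562, 9.67 and 9.44 in UT7-5.3 and 8.71 and 8.74 in MV4-11, and its call was lost without the shcontrol array of K562 or of UT7-5.3.

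Of 28 red cell membrane and blood group genes, 11 were called higher and 2 lower, with a median difference of 0.26, which was 0.15 with the 2 members below the filter. Against MV4-11, 13 were higher and 2 lower. Against UT7-5.3, 4 were higher and 4 lower. The shares over all genes were 4.31% higher and 6.29% lower than the mean of the other lines. They were 7.06% and 8.04% against MV4-11, and 4.0% and 5.85% against UT7-5.3. Only ADD2, SPTB and TMOD1 of the list were K562-high, beside 1.78% of all genes. Beta spectrin (SPTB), a strand of the membrane skeleton, was at 8.04 and 8.12 in K562, 6.76 and 6.79 in UT7-5.3 and 5.89 and 5.83 in MV4-11. Tropomodulin (TMOD1), which caps actin filaments, was at 8.92 and 9.07, 7.50 and 7.78, and 5.77 and 6.17. The Rh-associated ammonium channel RHAG was at 11.40 and 11.53 in K562, 10.30 and 10.41 in UT7-5.3 and 4.37 and 4.26 in MV4-11, with a gap of 0.99 that just missed the rule. RHD and RHCE, near copies whose probes may not separate them, exceeded MV4-11 by 3.96 and 2.46 and lay within 0.25 of UT7-5.3. CD44, the hyaluronan receptor, was K562-low at 5.29 and 5.53 against 8.87 to 9.09 in UT7-5.3 and 7.95 to 8.17 in MV4-11.

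Among 22 erythroid and megakaryocytic transcription factors, 4 were higher and 3 lower, against 4.31% and 6.29% of all genes. GATA1, the master regulator of red cells, platelets and eosinophils, was at 10.39 and 10.45 in K562, 9.81 and 9.83 in UT7-5.3 and 5.94 and 5.62 in MV4-11 (difference 2.62 ± 0.10, adjusted p = 1.89e-10). KLF1, which drives adult globin genes, was not called, at 8.71 and 8.78, 8.93 and 8.81, and 8.16 and 7.62. SOX6, a repressor of embryonic globin genes known from mouse and human work, was K562-high at 5.00 and 5.10 against 3.60 to 3.72. SOX6 lay close to the filter of log2 5, which kept it only through K562, and was near the floor in the other lines. FLI1, an ETS factor of megakaryocytes, was K562-low at 6.75 and 6.61 against 9.33 and 9.32 in UT7-5.3 and 9.25 and 9.24 in MV4-11. ETV6, another ETS factor, was at 7.67 and 7.56 against 9.66 to 10.34. HEMGN, an erythroid nuclear protein chosen after its values were seen, was at 9.33 and 9.35 in K562, 5.71 and 6.37 in UT7-5.3 and 4.20 and 4.43 in MV4-11. Platelet genes showed no common direction, with 3 of 18 higher and 2 lower, beside the same 4.31% and 6.29% over all genes. LTBP1 (8.02 and 8.22 against 4.25 to 5.65) and the secretory GTPase RAB27B (7.42 and 7.74 against 4.41 to 6.02) were K562-high, while pleckstrin (PLEK, 4.19 and 4.38 against 6.88 to 8.90) was K562-low.

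Promoters were searched for GATA boxes, the site that GATA1 binds, and 5 red cell membrane genes with a box that were called higher are shown. The letters searched were AGATAA as well as AGATAG, together with TGATAA as well as TGATAG, on both strands, and the matching stretches, with the box in capitals, are from RefSeq (GRCh38.p14), for KEL at chr7:142962398-142962447, RHAG at chr6:49636843-49636892, RHD at chr1:25272411-25272460, RHCE at chr1:25420886-25420923 and SPTB at chr14:64879972-64880021. RHD is on the plus strand and the others are on the minus strand.
KEL: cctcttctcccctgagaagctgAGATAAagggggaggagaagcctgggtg
RHAG: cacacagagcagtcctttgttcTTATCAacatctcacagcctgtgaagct
RHD: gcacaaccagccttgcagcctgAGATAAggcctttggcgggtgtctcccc
RHCE: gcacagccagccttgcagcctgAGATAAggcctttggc
SPTB: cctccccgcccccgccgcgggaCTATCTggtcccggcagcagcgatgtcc
RHAG and SPTB carry the box on the opposite strand. A box stood in 8 of 21 promoters of the list (38.1%), in 15.0% of all 10518 protein-coding promoters, in 23.5% of K562-high and in 16.3% of K562-low promoters. RHD and RHCE are near copies and not separate cases. The list was chosen with values known, so the shares are a description. A match is a description of the letters and not a bound site.

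**Figure D3:**
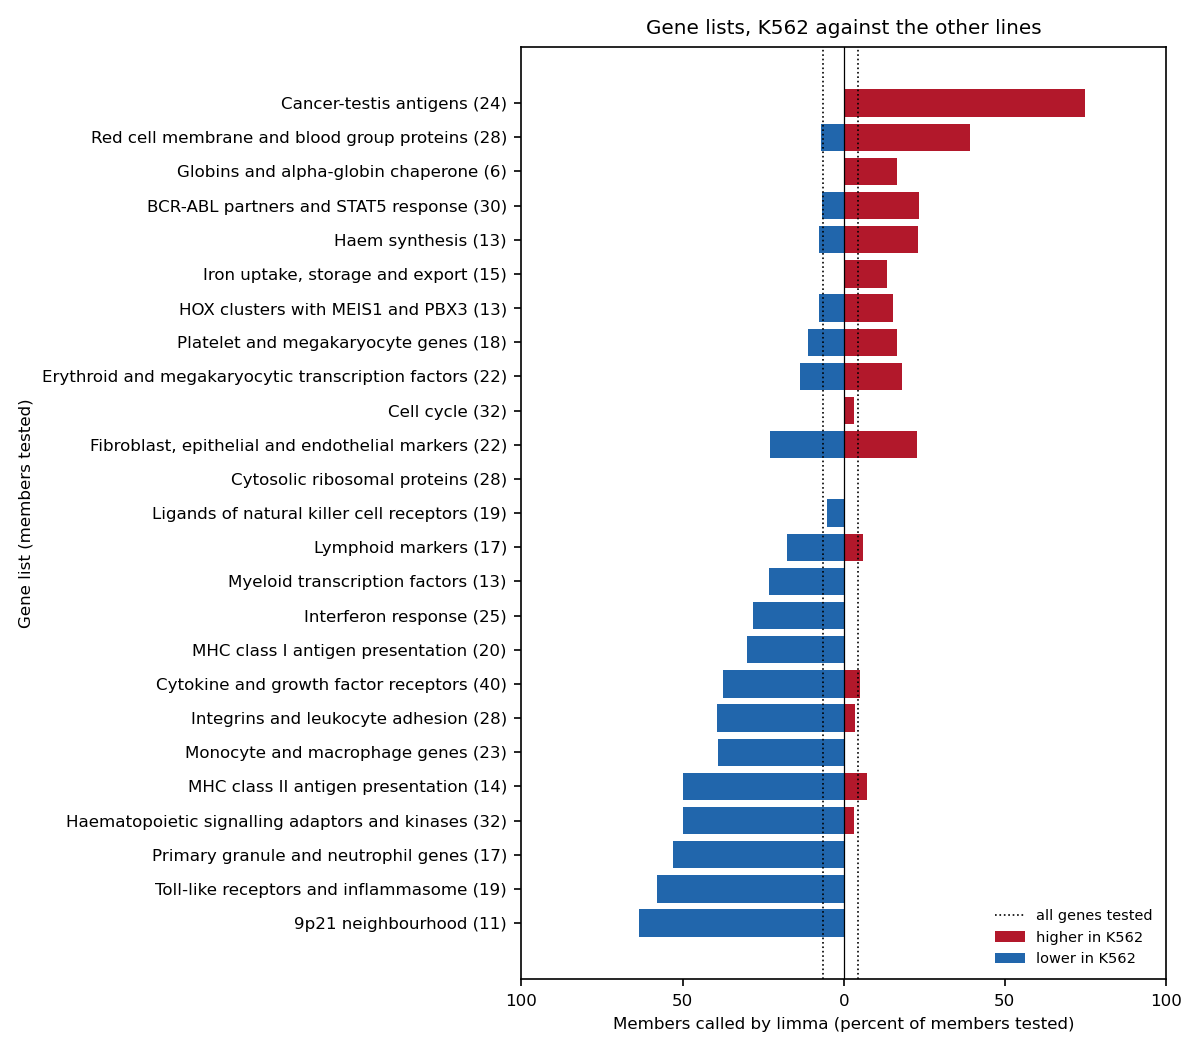
Members of the gene lists called by limma as higher (red, to the right) or lower (blue, to the left) in K562 than in the mean of the other lines, in percent of the members tested, with the number tested in brackets. Dotted lines mark all genes, 4.31% higher and 6.29% lower. Cancer-testis antigens lead the right side, and the 9p21 neighbourhood, Toll-like receptors and primary granule genes lead the left.

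Of 30 partners of the BCR-ABL1 kinase and targets of STAT5, 7 were called higher and 2 lower, with a median difference of 0.27. Against MV4-11, 11 were higher and 2 lower (median 0.46), and against UT7-5.3, 2 were higher and 1 lower (median -0.02). Of all genes, 4.31% were called higher and 6.29% lower than the mean of the other lines. The shares were 7.06% and 8.04% against MV4-11, and 4.0% and 5.85% against UT7-5.3. CRKL, the adaptor that is the main substrate of the fusion kinase, was K562-high at 10.51 and 10.49 against 8.62 to 8.75 in UT7-5.3 and 8.67 to 8.74 in MV4-11. ABL1 was at 9.43 and 9.50 in K562, 8.22 and 7.94 in UT7-5.3 and 8.37 and 8.40 in MV4-11, with a gap of 1.03. BCR was not called, at 7.51 and 7.49 in K562, 7.73 and 7.38 in UT7-5.3 and 6.47 and 6.40 in MV4-11, so K562 overlapped UT7-5.3. Whether these features take up the fusion transcript was not checked. PIM2, a kinase induced by STAT5, was higher by 1.22 ± 0.09 (adjusted p = 1.60e-07). It lay 0.51 above UT7-5.3 and 1.94 above MV4-11. DUSP6, a phosphatase that turns ERK off and is induced by it, was K562-low at 4.41 and 4.28 against 5.96 and 6.12 in UT7-5.3 and 7.62 and 7.37 in MV4-11. SPRY2, another inhibitor of the pathway, was lower with a difference of -1.33 ± 0.10 (adjusted p = 1.21e-07).

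HOX genes encode position along the body axis and regulate blood progenitors. In a list of HOX genes with the cofactors MEIS1 and PBX3, 13 members were tested. Of these, 2 were called higher and 1 lower, against 4.31% and 6.29% of all genes. HOXB9 was K562-high at 10.16 and 10.28 against 7.50 and 7.32 in UT7-5.3 and 5.74 and 6.04 in MV4-11. Its neighbour HOXB7 was not called (7.59 and 7.60 against 6.84 to 7.44). The 1 lower member was the cofactor PBX3 and not a HOX gene. It was K562-low at 5.15 on both arrays, 6.71 and 6.66 in UT7-5.3 and 9.18 and 9.23 in MV4-11. Most HOXA genes had no feature of their own. The stress cytokine GDF15 was K562-high at 7.40 and 7.33 against 5.54 to 5.91.

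Of the gene lists, that of leukocyte signalling held the most K562-low genes. Of 32 adaptors, phosphatases and kinases tested, 16 were called lower, 1 higher and 11 were K562-low, with a median difference of -1.01. Against UT7-5.3, 13 were lower and against MV4-11, 18. Over all genes 6.29% were called lower, 4.31% higher and 1.81% were K562-low. The shares lower were 5.85% against UT7-5.3 and 8.04% against MV4-11. This list, like the others, was chosen with earlier results of these data known. INPP5D (SHIP1), the lipid phosphatase that ends PI3-kinase signals, was at 6.24 and 6.46 in K562, 9.28 and 8.89 in UT7-5.3 and 9.20 and 9.24 in MV4-11. PTPN6 (SHP-1), a phosphatase that dampens cytokine receptors, was at 6.21 and 6.26 against 8.28 to 9.10. LAPTM5, a lysosomal protein of blood cells, was at 9.22 and 9.17 against 11.56 to 12.23. The exchange factors VAV1 (6.60 and 6.71 against 8.16 to 8.67) and VAV3 (4.16 and 4.11 against 5.74 to 7.54), the phospholipase PLCG2 (5.73 and 5.76 against 7.45 to 9.07) and the adaptor LCP2 (6.30 and 6.50 against 7.55 to 8.74) were K562-low as well. K562 stood below both other lines in each, and the other lines were close to each other in INPP5D.

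TYROBP (DAP12), the adaptor of activating immune receptors on myeloid and natural killer cells, was at 6.93 and 7.34 in K562, 11.69 and 11.88 in UT7-5.3 and 11.18 and 10.63 in MV4-11. Outside the list, ARHGAP15, a GTPase-activating protein for RAC, had the largest gap of all K562-low genes, at 3.88 and 3.96 in K562, 9.56 and 9.81 in UT7-5.3 and 8.82 and 8.85 in MV4-11. BIN2, a membrane-bending protein of leukocytes, was at 4.63 and 4.77 against 9.56 to 10.31. The succinate receptor SUCNR1 was at 2.81 and 3.00 against 8.81 and 9.54 in UT7-5.3 and 6.87 and 6.90 in MV4-11, and the acyl-CoA synthetase ACSL5 at 4.34 and 4.53 against 8.60 to 8.93. UBASH3B, a phosphatase chosen after its values were seen, was at 4.71 and 4.68 against 10.10 and 10.01 in UT7-5.3 and 7.91 and 7.73 in MV4-11.

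The promoters of several of these genes hold GAGGAAGT, a form of the purine-rich site that ETS factors such as SPI1 (PU.1) and FLI1 bind. The stretches are shown with the site in capitals from RefSeq (GRCh38.p14), PTPN6 at chr12:6946579-6946626, VAV1 at chr19:6772675-6772726, INPP5D at chr2:233060257-233060308, LCP2 at chr5:170297828-170297879 and TYROBP at chr19:35908278-35908329. The first 3 lie on the plus strand, LCP2 and TYROBP on the minus strand, and TYROBP carries the site on the opposite strand.
PTPN6: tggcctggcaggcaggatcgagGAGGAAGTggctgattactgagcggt
VAV1: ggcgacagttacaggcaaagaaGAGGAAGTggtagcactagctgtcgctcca
INPP5D: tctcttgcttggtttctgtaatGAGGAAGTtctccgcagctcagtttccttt
LCP2: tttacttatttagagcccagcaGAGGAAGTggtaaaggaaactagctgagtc
TYROBP: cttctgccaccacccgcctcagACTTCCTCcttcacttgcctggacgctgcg
Searched on both strands, the site stood in 6 of 26 promoters of the signalling list (23.1%), in 2.6% of all 10518 promoters, in 6.7% of K562-low and in 2.2% of K562-high promoters. The motif and the list were chosen with values known, so the shares are a description. SPI1 itself was not called. It was at 6.96 and 6.93 in K562, 7.46 and 7.26 in UT7-5.3 and 8.20 and 8.12 in MV4-11, with a difference of -0.81 ± 0.09 (adjusted p = 6.71e-06) that missed the 1 log2 minimum.

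Cytokine and growth factor receptors were lower in 15 of 40 cases and higher in 2, against 6.29% and 4.31% of all genes. Of the 40, 8 had passed the filter only through the other lines. TGFBR2, the receptor that binds TGF-beta, was K562-low at 4.52 and 4.45 against 7.33 to 7.57. Its coreceptor TGFBR3 went the other way, at 7.47 and 7.30 against 4.91 to 5.53, and endoglin (ENG) was K562-low at 6.66 and 6.40 against 8.28 to 9.05. CSF2RA, the binding chain of the GM-CSF receptor, was at 5.74 and 5.79 in K562, 7.95 and 7.85 in UT7-5.3 and 8.58 and 8.29 in MV4-11. IL3RA was at 4.88 and 4.99, 6.87 and 6.47, and 9.14 and 8.97. GM-CSF was in the UT7-5.3 medium only, so its part in these values cannot be told apart from the line. Of 28 integrin and leukocyte adhesion genes, 11 were lower and 1 higher, beside the same shares over all genes. Of the 28, 7 had passed the filter only through the other lines. The alpha-4 integrin ITGA4 was at 4.79 and 4.85 in K562, 9.21 and 9.65 in UT7-5.3 and 8.69 and 8.82 in MV4-11. CD38 (4.28 and 4.32 against 6.61 to 7.65) and the selectin ligand SELPLG (6.13 and 6.16 against 7.52 to 7.98) were also K562-low, and ITGB5 was K562-high at 6.56 and 6.61 against 5.17 to 5.42.

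Myeloid effector genes were lower in K562 than in MV4-11 more often than against UT7-5.3. Of 17 primary granule and neutrophil genes, 9 were called lower than the mean of the other lines. Against MV4-11 alone 13 were lower, and against UT7-5.3 alone 2. Over all genes 6.29% were called lower and 1.81% were K562-low. All genes leaned the same way, with 8.04% lower against MV4-11 and 5.85% against UT7-5.3. RNASE2 was at 4.84 and 5.01 in K562, 5.03 and 4.85 in UT7-5.3 and 12.13 and 12.11 in MV4-11, and ELANE, neutrophil elastase, at 6.03 and 6.09, 6.31 and 5.88, and 10.79 and 11.88. K562 and UT7-5.3 overlapped in both genes. MS4A3 was the 1 K562-low member, at 6.65 and 6.86 against 8.93 to 9.64. Monocyte genes were lower in 9 of 23 cases and K562-low in 6, among them the Fc receptor gamma chain FCER1G (4.62 and 5.29 against 7.31 to 8.62), the oxidase subunit NCF4 (5.76 and 5.85 against 8.47 to 8.84) and the alpha-M integrin ITGAM (5.35 and 5.29 against 6.66 to 8.47). No myeloid transcription factor of 13 was K562-low, and 3 were called lower. IRF8 was at 4.99 and 5.03 in K562, 5.11 and 4.93 in UT7-5.3 and 9.57 and 9.0 in MV4-11.

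Of 19 Toll-like receptor and inflammasome genes tested, 11 were called lower and none higher, but 11 of the 19 had passed the filter only through the other lines. Against UT7-5.3, 5 were lower (median -0.30) and against MV4-11, 10 (median -1.48). Over all genes 6.29% were called lower, with 5.85% against UT7-5.3 and 8.04% against MV4-11. With the 11 further members below the filter the median difference was -0.42, against -1.24 among the 19. IRAK3, an inhibitor of Toll-like receptor signalling, was at 3.64 and 3.61 in K562, 7.84 and 7.81 in UT7-5.3 and 10.47 and 10.32 in MV4-11. The cytosolic DNA sensor CGAS was at 4.11 and 4.25 against 6.67 and 6.79 in UT7-5.3 and 8.15 and 8.01 in MV4-11. CASP4, a caspase that senses bacterial lipopolysaccharide, was at 4.08 and 3.92 against 6.63 to 7.01. The shared adaptor MYD88 was not called, at 8.43 and 8.53 against 8.15 to 8.24. Interferon-response genes were lower in 7 of 25 cases and higher in none, while 8 of the 25 had passed the filter only through the other lines. A filter at log2 6, with fewer members tested, left 3 calls. The ubiquitin-like ligase HERC5 (3.85 and 3.86 against 6.03 to 7.03) and the RNA sensor IFIH1 (4.34 and 4.25 against 5.42 to 6.60) were K562-low.

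Antigen presentation was lower without a wide gap, for class II genes mainly against UT7-5.3. Of 20 class I genes, 6 were called lower, none higher and none was K562-low, with a median difference of -0.56. Over all genes 6.29% were called lower and 4.31% higher. HLA-C was at 7.50 and 7.38 in K562, 8.59 and 8.35 in UT7-5.3 and 9.96 and 9.47 in MV4-11 (difference -1.65 ± 0.10, adjusted p = 1.47e-08). HLA-B was at 6.11 and 6.15, 7.02 and 6.86, and 8.92 and 8.33 (difference -1.65 ± 0.12, adjusted p = 8.04e-08). Polymorphic HLA genes can differ in how well the probes match each line's alleles. Beta-2 microglobulin (B2M) was not called, at 10.25 and 10.29 in K562, 10.17 and 10.44 in UT7-5.3 and 10.85 and 10.73 in MV4-11. The immunoproteasome genes PSMB8 and PSME1 were lower by gaps of 0.98 and 0.97. Of 14 class II genes, 4 of them kept by the filter only through the other lines, 7 were lower and 1 higher. Against UT7-5.3, 9 were lower (median -1.36), and against MV4-11, 3 were lower and 1 higher (median -0.18). The shares over all genes were 5.85% lower against UT7-5.3, and 8.04% lower and 7.06% higher against MV4-11. The invariant chain CD74 was K562-low at 6.09 and 6.14 against 7.16 to 7.95, whereas HLA-DRA was at 4.17 and 4.15 in K562, 10.66 and 10.43 in UT7-5.3 and 5.06 and 4.38 in MV4-11. Of 19 ligands of natural killer cell receptors, none was called higher and 1 lower. MICB was at 8.40 and 8.53 against 8.0 to 8.20 and ULBP1 at 5.90 and 5.92 against 5.15 to 5.45, both under the 1 log2 minimum.

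K562-high genes were most frequent on chromosome X, where they made up 33 of 503 genes (6.56%), 16 of them from the cancer-testis list. Next came chromosome 18 (4.46%), 21 (4.12%), 22 (3.86%) and 7 (3.20%). K562-low genes were most frequent on chromosome 13 (4.59%), where the median difference over 283 genes was -0.33, with -0.12 against UT7-5.3 and -0.54 against MV4-11. Genes of chromosome Y and XIST count in the totals over all genes but are not shown by chromosome and not named.

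**Figure D4:**
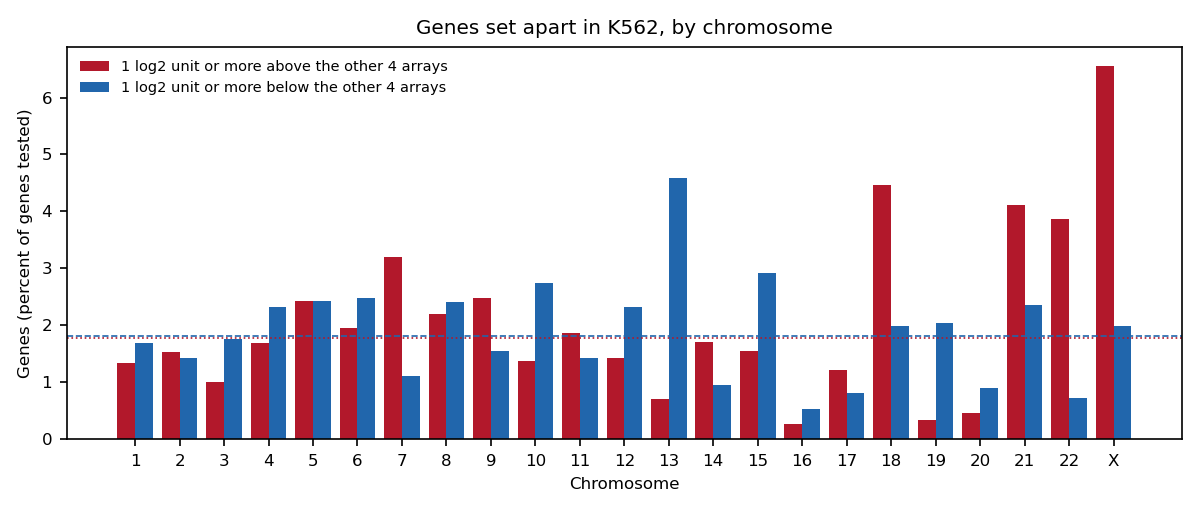
Percent of the genes tested on each chromosome that were K562-high (red) or K562-low (blue). The dotted and dashed lines mark all genes, 1.78% and 1.81%. The red bar is highest on chromosome X (6.56%) and the blue bar on chromosome 13 (4.59%).

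Runs of neighbouring genes stood apart together. Windows of 20 protein-coding genes were taken in gene order on GRCh38.p14, and windows among those with the highest and lowest medians were picked after their values were seen, so they carry no test. Those left undescribed include 0.77 for SLC30A7 to CELSR2 on chromosome 1, 0.77 for SSX5 to OTUD5 on chromosome X, -0.88 for LRCH1 to WDFY2 on chromosome 13, and -0.76 and -0.74 for RGS10 to ACADSB and FAM107B to SKIDA1 on chromosome 10. On chromosome 22 the window from MED15 to PRAME had a median difference of 1.22, and 9 of its 20 genes were K562-high. They included CRKL, the vesicle-fusion protein SNAP29 (10.65 and 10.53 against 8.77 to 9.18), YDJC (9.77 and 9.92 against 7.43 to 8.09), the topoisomerase TOP3B (7.99 and 8.20 against 6.53 to 6.92) and ZNF280B (8.37 and 8.45 against 5.60 to 6.35). ZNF280A beside it was at 8.87 and 8.89 in K562, 5.03 and 5.12 in UT7-5.3 and 3.68 and 3.77 in MV4-11. GNAZ and RAB36, next to BCR in the gene order, were not called. On chromosome 7 the window from PMPCB to BCAP29, which holds RELN, had a median of 0.84, and 19 of its 20 genes were higher in K562. EFCAB10 (6.52 and 7.02 against 3.86 to 4.02), the protein kinase A subunit PRKAR2B (10.60 and 10.70 against 7.60 to 9.02) and DUS4L (6.70 and 6.74 against 5.15 to 5.40) were its further K562-high genes. On chromosome X the window from WDR45 to SSX7, which holds the GAGE genes, had a median of 0.66.

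On chromosome 9 the window from ZDHHC21 to PLAA, in band 9p21 and its surroundings, had a median of -0.71 (-1.06 against UT7-5.3 and -0.31 against MV4-11) and 6 K562-low genes. MTAP, which salvages adenine and methionine, was at 3.63 and 3.64 in K562, 7.71 and 7.96 in UT7-5.3 and 7.56 and 7.49 in MV4-11. The K562 values lay at the floor. MLLT3 (4.46 and 4.41 against 6.32 to 8.22), HACD4 (3.84 and 3.97 against 6.04 to 6.62), KLHL9 (4.59 and 4.65 against 6.30 to 7.38), FOCAD (4.21 and 4.26 against 5.52 to 6.91) and CNTLN (3.45 and 3.54 against 5.37 to 6.55) were the others. CDKN2A, the tumour suppressor beside MTAP, was at 5.23 and 5.16 in K562, 7.42 and 7.77 in UT7-5.3 and 5.35 and 5.58 in MV4-11, so that K562 was close to MV4-11. Between CNTLN and MLLT3 in the gene order, RPS6 (7.55 and 7.60 against 7.50 to 7.81) and DENND4C (7.24 and 7.23 against 6.71 to 7.42) overlapped the other lines. Of the 23 genes listed for 9p21, 12 were below the filter, most of them interferon genes under log2 4 in every line, and the median over the 23 was -0.10. Of the 11 tested, 7 were called lower, against 6.29% of all genes, and 7 had passed the filter only through the other lines.

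Zinc finger genes made up most of the low window of chromosome 19. From COX7A1 to ZNF569 the median was -1.09, 6 of 20 genes were K562-low and 1 was higher in K562 on average. Most of these genes encode KRAB zinc finger proteins, many of which are DNA-binding repressors. ZNF461 was at 4.36 and 4.61 in K562 against 6.28 to 6.86, ZNF850 at 8.07 and 8.27 against 9.49 to 10.38, and ZNF875 at 5.59 and 5.44 against 6.93 to 7.31. ZNF607, further along the same chromosome, was called higher (6.37 and 6.58 in K562, 5.68 and 5.85 in UT7-5.3, 4.79 and 4.78 in MV4-11). Of 209 ZNF genes tested on chromosome 19, 10 were K562-low and 1 K562-high, against 1.81% and 1.78% of all genes. Their median difference was -0.24. Over all 417 ZNF genes the median was -0.08. On chromosome 13 the window from COMMD6 to RAP2A had a median of -1.15. In it LMO7 (4.41 and 4.43 against 6.33 to 6.80), the ubiquitin ligase MYCBP2 (7.86 and 7.77 against 9.14 to 9.44) and RAP2A (6.49 and 6.66 against 7.67 to 8.27) were K562-low. DNA copy number was not measured. GOLGA8 genes of chromosome 15, which are near copies of each other, were K562-low in 7 of 11 cases, against 1.81% of all genes. GOLGA8Q was at 5.95 and 5.92 against 9.83 to 10.39.

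**Figure D5:**
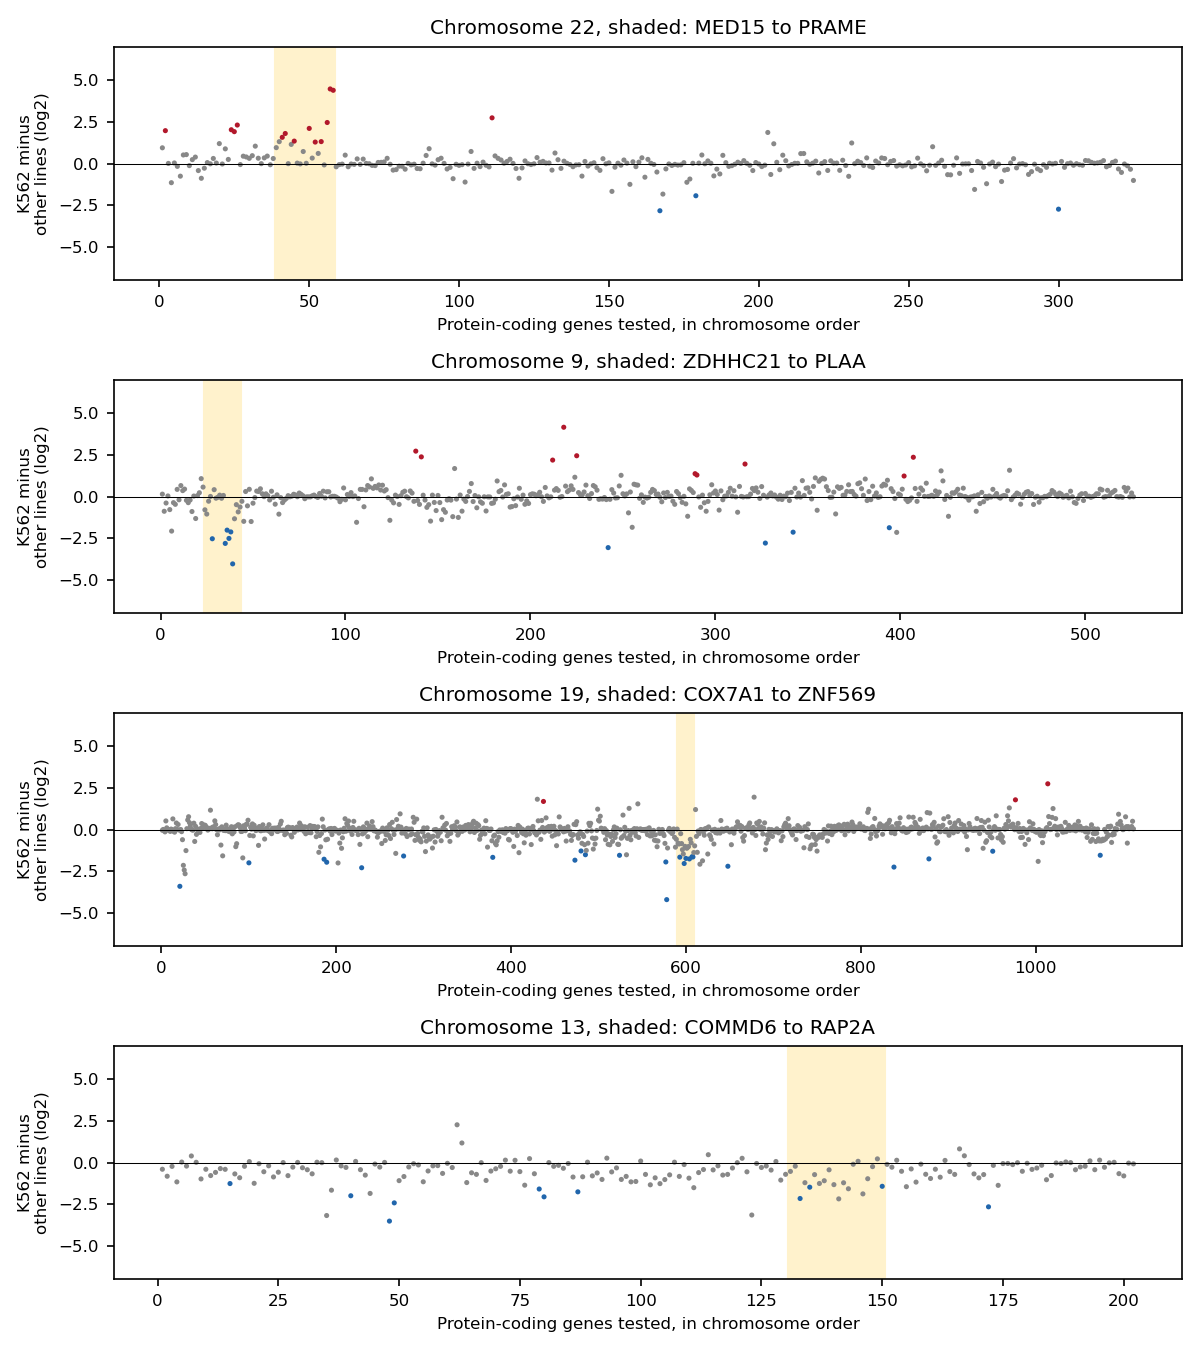
Difference of K562 from the mean of the other lines (log2, vertical axis) for protein-coding genes in their order along chromosomes 22, 9, 19 and 13, with K562-high genes in red, K562-low genes in blue and the described window shaded. The shaded genes lie mostly above 0 on chromosome 22 and mostly below 0 on the other three chromosomes.

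MiRNA genes were few among the members. The 5 are shown by their mature sequences from RefSeq (GRCh38.p14), with the seed, bases 2 to 8, in capitals, because the seed decides which messages a miRNA pairs with. MIR181B1, MIR221 and MIR4482 were K562-low and MIR3689C and MIR4804 were K562-high.
hsa-miR-181b-5p: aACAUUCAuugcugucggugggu
hsa-miR-181b-3p: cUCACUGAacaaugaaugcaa
hsa-miR-221-3p: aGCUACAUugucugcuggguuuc
hsa-miR-4482-5p: aACCCAGUgggcuauggaaaug
hsa-miR-4482-3p: uUUCUAUUucucaguggggcuc
hsa-miR-3689c: cUGGGAGGugugauauuguggu
hsa-miR-4804-5p: uUGGACGGuaagguuaagcaa
hsa-miR-4804-3p: uGCUUAACcuugcccucgaaa
No seed is shared between them. MIR181B1 was at 4.18 and 3.54 in K562, 8.0 and 8.49 in UT7-5.3 and 6.86 and 7.24 in MV4-11. MIR221, known to target KIT in erythroid cells, was at 3.90 and 3.68 against 5.85 and 5.78 in UT7-5.3 and 6.78 and 5.60 in MV4-11. The gap was -1.28 in MIR4482, 1.12 in MIR3689C and 1.36 in MIR4804. The labelled target was made from whole transcripts, and which strand or precursor a feature took up is not known from the values. Among other noncoding members, RUNX1-IT1, from an intron of RUNX1, was K562-low at 5.30 and 5.45 against 7.36 to 9.37, and the snoRNA gene SNORA47 at 6.47 and 6.82 against 8.54 to 9.37.

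Housekeeping groups showed little. None of 28 cytosolic ribosomal protein genes was called, with a median difference of -0.00. Of 32 cell cycle genes 1 was called, CDK2, at 9.24 and 9.29 in K562 against 8.11 to 8.51, a difference of 1.0 that lay at the minimum and was lost with quantile normalization. Of 17 lymphoid markers 1 was higher and 3 lower, against 4.31% and 6.29% of all genes. LEF1, a partner of beta-catenin, was K562-high at 7.52 and 7.49 against 6.43 and 6.47 in UT7-5.3 and 4.62 and 4.66 in MV4-11. Iron genes gave 2 higher of 15, with biliverdin reductase B (BLVRB) at 11.07 and 11.09 in K562, 10.16 and 10.33 in UT7-5.3 and 7.97 and 8.08 in MV4-11.

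The shRNA difference was small in K562 and larger in the other lines. The shRINF minus shcontrol difference in K562 had a median of 0.04 over the K562-high and 0.03 over the K562-low genes, against 0.01 over all genes, and reached 0.5 log2 units or more in 1 (0.37%) and 2 (0.72%) of them, against 0.14% of all genes. Over all genes this difference had an SD of 0.103 in K562, compared with 0.259 for UT7-5.3 and 0.179 for MV4-11, so the K562 arrays were the closest pair. The 2 K562-low genes were MIR181B1 (-0.64) and FCER1G (0.67), and the K562-high gene was EFCAB10. In UT7-5.3 it reached 0.5 in 7.72% of the K562-high and 10.83% of the K562-low genes, against 4.43% of all genes. The shares in MV4-11 were 2.57% and 10.11%, against 2.06%. The 2 arrays of each line correlated, over all features, at no less than 0.9928. K562 correlated with UT7-5.3 at 0.956 to 0.959 and with MV4-11 at 0.93 to 0.934. The nearer line was UT7-5.3 for 168 of the 272 K562-high and 168 of the 277 K562-low genes. UT7-5.3 and MV4-11 differed by a median of only 0.21 log2 units in the K562-high and 0.6 in the K562-low genes. The nearer line was thus often set by a small difference, and no share over all genes is given beside these counts. The other lines had members of their own by the same rule. UT7-5.3 stood above all other arrays in 343 genes (2.24%) and below them in 79 (0.516%), and MV4-11 in 564 (3.68%) and 371 (2.42%).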

How the data were processed

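RNA from 6 cultures, 1 for each shRNA in each of 3 lines, was measured on whole-transcript arrays. The authors deposited log2 expression values, and the submitters' processing notes name RMA and Affymetrix Expression Console as their source. Neither versions nor a genome build is given in the sources used here. The log base was taken as 2 from the method and the range of values (1.63 to 13.89). No detection calls were used. Precision is limited by the small number of arrays.

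Of 67528 features, 23781 had 1 gene symbol, 1543 several and 42204 none. Features with 1 symbol and a value of log2 5 or more on at least 2 of the 6 arrays were kept, and where a gene had several, that of highest mean was taken, which left 15311 of 22411 genes, 15308 of them matched to RefSeq (GRCh38.p14).

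Line and shRNA were fitted in limma 3.58.1 (R 4.3.3) on all arrays, with Benjamini-Hochberg adjustment over all genes (2 residual and 10.7 prior degrees of freedom). Called genes had an adjusted p under 0.05 and a difference of 1 log2 unit or more. Data were simulated for the comparison of K562 with the other lines over 15311 genes. Shifts of 1.5, 2 and 3 log2 units were each recovered in 100% of cases, with 0 false calls per run. All these shifts exceed the 1 log2 minimum and are many times the SEs given here, so this outcome was largely set in advance. It is no check of calls near the minimum, nor of the unequal spread within the lines. The gap is the distance from K562 to the nearest of the other 4 arrays. Genes were named by the largest gaps (20 protein-coding and up to 6 others in each direction), up to 8 per list, defining genes of a list and the genes at the edge of the rule. Further genes, among them the members of the chromosome windows, were picked once their values had been seen. The members and lists were chosen with earlier results of these data known.

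The shRNA term takes the place of a replicate block, since each number within a line is an shRNA. Correlation between arrays was at least 0.9928 within a line and at most 0.959 across lines. Alternatives were the filter, the choice of feature, 3 between-array normalizations, a variance trend, the model without the shRNA term, other thresholds and gaps, and leaving out each array. Features without a single gene symbol stayed out of the comparisons. Some genes and 1 gene list are not reported here.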

Additional observations from a re-analysis of the deposited data

How the results depend on the processing

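Among the genes named, no called difference changed sign under the alternatives run (CXXC5, RAB36, GNAZ, DENND4C and HBB, uncalled and near 0, did), but the balance of higher to lower counts did turn. The 660 genes higher and 963 lower became more higher than lower in the runs without a fold minimum and with the other arrays as 1 group. With no fold minimum, 3796 genes were higher and 3512 lower in K562 than in the mean of the other lines, 3243 and 3121 against UT7-5.3, and 4209 and 3515 against MV4-11, while UT7-5.3 against MV4-11 gave 3950 and 3451. In the same way the 272 K562-high and 277 K562-low genes became 846 and 690 with a gap of 0.5, and a gap of 2 gave 92 and 91. With the other 4 arrays as 1 group, 297 genes were higher and 238 lower, since the difference between the other lines then enters the error. Leaving out each array in turn gave 276 to 334 K562-high and 291 to 329 K562-low genes. These counts could not fall, because leaving out an array can only keep or widen a gap, so they are no check of the rule. Fits without 1 array leave a line with a single array, and their counts of called genes are not given. In such fits the lone array of a line is assumed to vary like the others, and the prior degrees of freedom were 1.5 without a UT7-5.3 array. Of the single genes named, 4844 values kept their side of the threshold, 98 newly passed it and 42 no longer did. The latter lay close to the 1 log2 minimum in the case of CDK2, STAT5B, ALAS1 and XPC. The median difference over all genes moved between -0.022 and 0.035 across settings. The model without the shRNA term, in place of which no other replicate block could be fitted, left every main count within 1.5 times. No paired analysis was possible because the replicate numbers stand for the shRNA, which the model already holds. A line is 1 cell line with 1 array per shRNA, so variation between cultures of the same treatment was not measured, and values near the floor give a smaller difference than the true one if the transcript was absent.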

Other observations

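Features that carry no single gene symbol were not part of the comparisons. Of these, 16610 passed the same filter. On 613 of them (3.69%) both K562 arrays lay above the other 4 arrays by 1 log2 unit or more, and on 190 (1.14%) below, with gaps of up to 6.43 log2 units above and 4.96 below. Among genes with a symbol the shares were 1.78% and 1.81%. Several of these features may belong to 1 transcript, so they are not independent counts.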
